A study of Mus musculus with 9 samples.

Results

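The genes described here are the nuclear-encoded subunits of oxidative phosphorylation, measured by RNA-seq in mammary tumors of mice with and without the inducible heat shock proteins of the Hsp72 gene pair. Members were the protein-coding mouse genes whose symbols begin with Nduf, Uqcr, Atp5, Cox4, Cox5, Cox6, Cox7 or Cox8, together with the 4 Sdh subunit genes and Cyc1, provided that their raw count averaged at least 5 over the libraries. Of 55403 gene rows, 95 met the naming rule and 87 also met the count minimum; 86 of these had enough counts in enough libraries to be tested. Members lie on 19 chromosomes and comprised 36 complex I subunits, 4 complex II subunits, 9 complex III subunits, 13 complex IV subunits, 17 ATP synthase genes and 8 complex I assembly factors whose symbols share the Nduf stem. The minimum count fell in the muscle and testis isoforms of complex IV: Cox7a1, with a mean count of 7.11, lay just inside it, and Cox6b2 and Cox8b, at 3.11 and 2.11, lay just outside.

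The 5 KO libraries came from tumors of Hspa1a/Hspa1b-/- females aged 120 to 125 days and the 4 WT libraries from tumors of Hspa1a/Hspa1b+/+ females aged 122 to 132 days. Both genotypes were C57BL/6 mice carrying the human MUC1 transgene and MMTV-PyMT, in which polyoma middle T is expressed from the promoter of mouse mammary tumor virus, so every sample is a tumor of the same transgenic model and none is normal gland. Tumors were digested to cell suspensions and the RNA was depleted of ribosomal RNA, so a library holds tumor cells and stroma together, and in such bulk RNA fewer cells of a type and less RNA per cell cannot be told apart. The labels number the samples within each genotype but do not say which animal each came from. Within a genotype the ages differed, except that KO 3 and KO 5 were both at 120 days and WT 3 and WT 4 both at 124 days. The p-values here therefore reflect only how these samples vary, which may be technical in part.

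Oxidative phosphorylation takes electrons from NADH at complex I and from succinate at complex II, passes them through complex III and cytochrome c to oxygen at complex IV, and uses the proton gradient built on the way to make ATP in the ATP synthase. Most subunits are encoded in the nucleus and imported into mitochondria, while a small core of complexes I, III, IV and V is encoded in mitochondrial DNA, so the assembly of a working chain draws on both genomes. Nuclear respiratory factor 1 (NRF1), GABP and YY1 are transcription factors known to act at many of these genes, and PGC-1alpha is a coactivator known for promoting mitochondrial biogenesis.

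Promoter windows, from 250 bases before to 50 bases after the annotated start in RefSeq (build GRCm38.p6), were found for 71 of the 87 members. A window of 300 bases was searched on both strands for the NRF1 motif, the GABP motif CCGGAAG, the YY1 motif, the SP1 motif GGGCGG, the CCAAT box and the TATA motif TATAAA; none of these motifs contains another. The NRF1 motif occurred in 18 member windows (25.4%), against 4.78% of all 27025 windows in the table and 10.4% of the 10288 windows of genes tested here. GABP letters were in 17 member windows (23.9%), against 9.12% of all windows and 18.2% of those of tested genes, and the YY1 motif in 5 (7.04%), against 0.899% and 2.11%. The SP1 string was in 43.7% of member windows, against 35.9% of all windows and 64.4% of those of tested genes. The CCAAT box was in 43.7%, against 37.9% and 38.6%, and TATAAA in 7.04%, against 14.2% and 7.06%. A match describes letters in a window and is not evidence of binding. The 6 windows printed belong to genes described further below, none of which passed the test. For Cox5a, Atp5e and Uqcr11 no KO library reached the level of any WT library. The genes Atp5g1, Atp5g2 and Atp5g3 encode the same mature subunit c and differed in their values. Capitals mark a GABP match in Atp5e and Uqcr11 and an NRF1 match in Atp5g2 and Atp5g3, on either strand. Uqcrfs1 and Ndufc1 also had no overlap between genotypes. Their windows, not printed, held 0 NRF1, 0 GABP and 0 YY1 matches.

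Cox5a (chr9:57520982-57521281, plus strand): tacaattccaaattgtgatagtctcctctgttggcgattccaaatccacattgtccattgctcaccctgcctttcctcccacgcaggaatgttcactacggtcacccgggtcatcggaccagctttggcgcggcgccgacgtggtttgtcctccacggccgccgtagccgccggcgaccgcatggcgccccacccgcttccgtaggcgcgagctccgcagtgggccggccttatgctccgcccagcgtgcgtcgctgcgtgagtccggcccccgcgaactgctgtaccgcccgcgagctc
Atp5e (chr2:174464052-174464351, minus strand): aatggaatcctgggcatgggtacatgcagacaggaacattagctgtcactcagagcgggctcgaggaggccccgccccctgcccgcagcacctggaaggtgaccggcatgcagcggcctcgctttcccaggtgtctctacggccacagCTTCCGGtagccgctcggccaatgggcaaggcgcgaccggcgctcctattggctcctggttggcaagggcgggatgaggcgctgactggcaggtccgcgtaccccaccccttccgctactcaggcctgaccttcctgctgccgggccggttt
Uqcr11 (chr10:80406772-80407071, minus strand): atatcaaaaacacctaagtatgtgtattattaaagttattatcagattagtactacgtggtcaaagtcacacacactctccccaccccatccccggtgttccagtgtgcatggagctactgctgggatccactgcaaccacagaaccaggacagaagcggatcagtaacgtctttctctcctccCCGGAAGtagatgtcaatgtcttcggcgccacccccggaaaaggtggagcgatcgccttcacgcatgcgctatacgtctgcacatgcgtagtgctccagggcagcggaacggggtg
Atp5g1 (chr11:96075582-96075881, minus strand): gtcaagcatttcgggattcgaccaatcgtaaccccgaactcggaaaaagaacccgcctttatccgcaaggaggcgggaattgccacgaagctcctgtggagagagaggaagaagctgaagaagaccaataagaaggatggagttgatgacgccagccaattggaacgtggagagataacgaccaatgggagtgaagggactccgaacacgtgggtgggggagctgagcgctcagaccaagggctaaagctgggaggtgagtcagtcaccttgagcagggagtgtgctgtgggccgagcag
Atp5g2 (chr15:102670998-102671297, minus strand): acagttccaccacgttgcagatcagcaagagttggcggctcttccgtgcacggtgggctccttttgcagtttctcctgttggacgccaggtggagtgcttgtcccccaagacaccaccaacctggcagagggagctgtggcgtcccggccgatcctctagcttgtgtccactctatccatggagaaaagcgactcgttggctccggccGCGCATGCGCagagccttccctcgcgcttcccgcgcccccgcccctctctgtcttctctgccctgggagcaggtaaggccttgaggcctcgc
Atp5g3 (chr2:73911277-73911576, minus strand): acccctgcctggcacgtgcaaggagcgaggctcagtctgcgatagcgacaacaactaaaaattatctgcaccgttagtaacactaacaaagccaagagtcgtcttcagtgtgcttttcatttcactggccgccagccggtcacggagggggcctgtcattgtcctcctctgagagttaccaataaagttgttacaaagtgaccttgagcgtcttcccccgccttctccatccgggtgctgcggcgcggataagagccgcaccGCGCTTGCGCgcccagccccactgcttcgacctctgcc

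The libraries held 4410399 to 6221181 counts in genes from 11500920 to 19136317 fragments, and the members together took 0.287% to 0.36% of gene counts in KO libraries and 0.291% to 0.412% in WT libraries. The deleted genes matched the labels: Hspa1b, one of the Hsp72 gene pair, was at 0 to 0.657 CPM (counts scaled to a common library size after TMM normalization) in KO libraries and 28.7 to 81.1 CPM in WT libraries, and Hspa1a was at 0.163 to 1.64 CPM in KO and 3.99 to 9.77 CPM in WT libraries. The luminal epithelial markers Krt8, Krt18 and Epcam were at 443 to 984 CPM in KO libraries and 518 to 1471 CPM in WT libraries. Among the marker lists, fibroblast genes summed to 199 to 414 CPM in KO and 533 to 737 CPM in WT libraries, without overlap. Luminal genes summed to 3577 to 4384 CPM in KO and 3944 to 7075 CPM in WT libraries. Macrophage genes summed to 255 to 652 CPM in KO and 491 to 795 CPM in WT libraries, and striated muscle genes to 120 to 203 CPM in KO and 67.0 to 176 CPM in WT libraries. The genotypes overlapped in the luminal, macrophage and striated muscle sums. In these lists 7 of 8 fibroblast, 10 of 10 luminal, 10 of 10 macrophage, 8 of 8 endothelial, 11 of 11 pericyte and 7 of 7 milk protein genes tested were below 0. Of all genes 50.0% were. The medians were -0.60, -0.46, -0.62, -0.83, -0.42 and -3.32 on the log2 scale. At an adjusted p under 0.05 in edgeR 0 were called, where 0.0886% of all genes were. At an unadjusted p under 0.05, 4, 3, 2, 4, 3 and 6 were lower in the same order, where 4.59% of all genes were. Without WT 1 the endothelial median was -0.33 and the luminal median -0.28. Milk protein genes summed to 2454 to 8029 CPM in KO and 3377 to 16994 CPM in WT libraries, so the genotypes overlapped. Their median deviation from the mean over the 9 libraries, in log2 CPM, was 3.44, -1.80, -0.19 and 3.19 in WT 1 to WT 4. In KO libraries it was -1.05 to -0.36. The part of this cell makeup in the values below was not tested.

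Across the whole set, the genes of oxidative phosphorylation had mostly small negative fold changes in KO tumors and none passed the test. With edgeR's quasi-likelihood fit and Benjamini-Hochberg adjustment over the 14665 genes tested, 0 of 86 members had an adjusted p under 0.05, where 0.0886% of all genes did. The smallest adjusted p among members was 0.613, and DESeq2 and limma-voom also called 0 members. At an unadjusted p under 0.05, 10 members (11.6%) were lower and 0 higher, where 7.95% of all genes had such a p, 4.59% lower and 3.36% higher. Log2 fold changes, KO over WT, were below 0 for 70 members (81.4%) and above 0 for 16, against 50.0% of all genes below 0, and the members' median was -0.14. Every KO library lay below every WT library for 5 members (5.81%), namely Cox5a, Atp5e, Uqcrfs1, Ndufc1 and Uqcr11, against 1.26% of all genes. Every KO library lay above every WT library for 0 members, against 1.44%.

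The intervals give the precision behind these values. The standard error of a member's log2 fold change had a median of 0.15 and lay between 0.11 and 0.28. For 85 of 86 members the 95% interval lay within 1 log2 unit of 0, as it did for 79.1% of all genes, and for 56 members it lay within 1.5-fold in either direction. Ndufa1 was the exception, with an interval of -1.26 to -0.15.

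**Figure D1:**
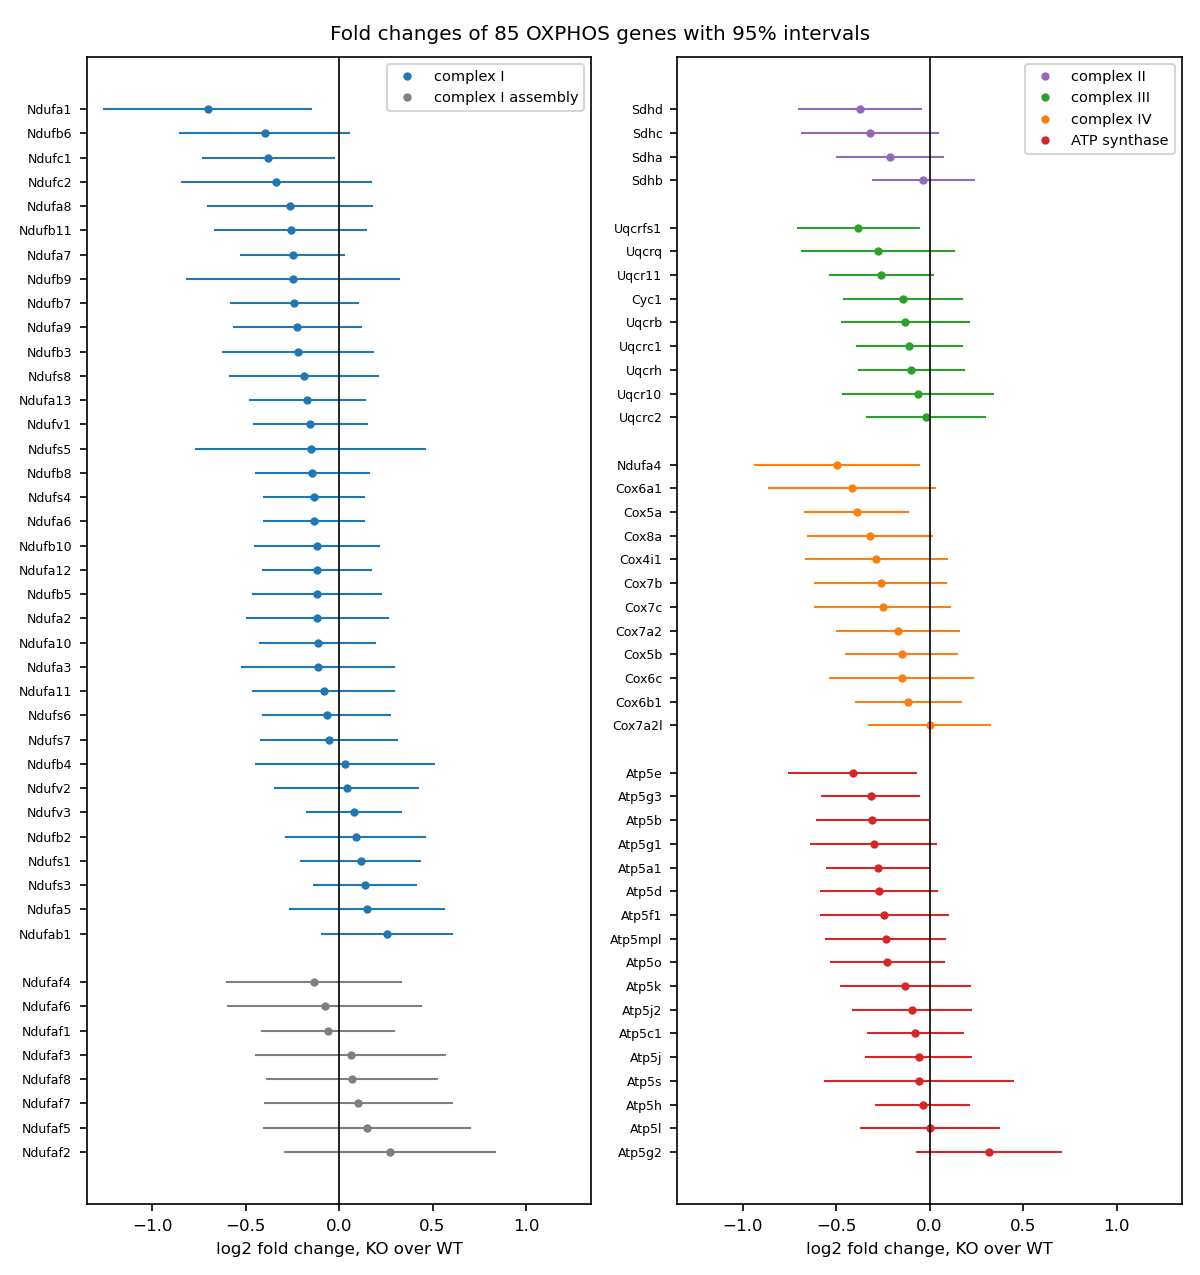
Log2 fold change, KO over WT, of 85 of the 86 tested members (points) with 95% intervals (lines), grouped by complex and ordered within it. Of the points, 69 lie left of 0, and all the intervals but that of Ndufa1 stay within 1 log2 unit of 0.

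Members lay mostly on one side of their own mean in some libraries and were split in others. Of the 86 tested members, 38, 12, 46, 21 and 62 were above their own mean in KO 1 to KO 5, and 77, 49, 62 and 40 in WT 1 to WT 4. Their median deviation from the mean over the 9 libraries, in log2 CPM, was -0.03, -0.20, 0.08, -0.16 and 0.07 in KO 1 to KO 5, and 0.26, 0.05, 0.09 and -0.03 in WT 1 to WT 4. WT 1 was the highest of the 9 libraries for 43 of the 87 members, and KO 2 was the lowest for 28. The ranges overlapped: KO 3 and KO 5 lay above WT 2 and WT 4. WT 1 also had 12.2% of its fragments unmapped and 3.69% of its gene counts in mitochondrial genes, and KO 3 had 11.0% and 4.31%, against 15.2% to 27.1% and 5.17% to 13.6% in the other WT libraries and 19.7% to 21.8% and 6.58% to 9.87% in the other KO libraries. Without WT 1 the members' median log2 fold change was -0.08. In that fit 3 of 86 members were lower at an unadjusted p under 0.05, where 3.33% of all genes were. Without KO 2 the median was -0.11 and the count 3, where 3.11% of all genes were lower. The same count was 5 without KO 4, 16 without KO 5 and 17 without WT 4. Of all genes, 3.57%, 5.18% and 5.73% were lower at such a p in these fits.

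**Figure D2:**
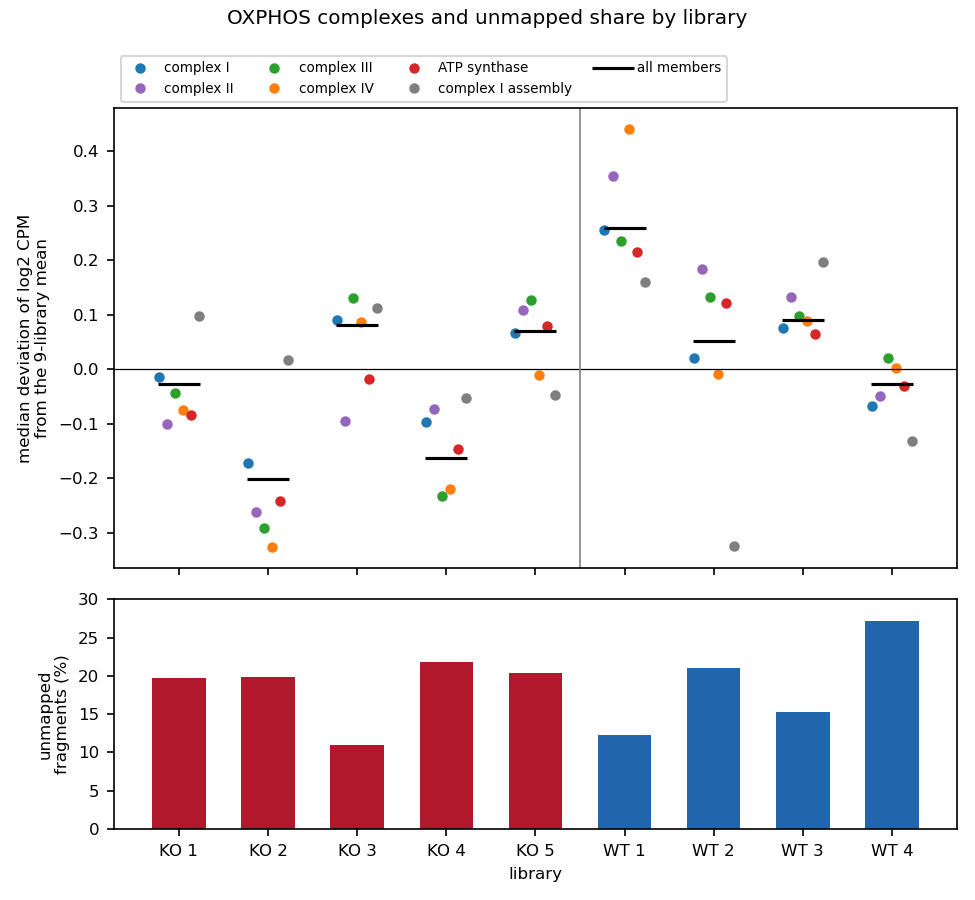
Upper plot: median deviation of log2 CPM from the mean over the 9 libraries for each complex (colored points) and for all members (black bars), with KO libraries left of the gray line. Lower plot: unmapped fragments in percent; WT 1, at 12.2%, has the highest all-member median, 0.26, and KO 2, at 19.8%, the lowest, -0.20.

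Complex I is the NADH dehydrogenase, represented here by 7 nuclear core genes, which carry the flavin and iron-sulfur centers, and 29 accessory genes. Of its 36 members, 28 had a fold change below 0 with a median of -0.13 (-0.07 without WT 1). At an unadjusted p under 0.05, 2 were lower, where 4.59% of all genes were, and 0 were called. The core genes had a median of -0.05, with 4 of 7 below 0, and the accessory genes a median of -0.13, with 24 of 29 below 0; the difference was not tested. With 1 library left out the core median lay between -0.15 (without KO 5) and -0.01 (without WT 3) and the accessory median between -0.19 (without WT 4) and -0.07 (without WT 1), so these ranges overlap.

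Ndufa1, an X-linked accessory subunit needed for assembly of the membrane arm, had the lowest fold change of all members. It was at 7.29, 8.47, 12.6, 6.86 and 7.01 CPM in KO 1 to KO 5 and 20.2, 11.1, 11.3 and 12.8 CPM in WT 1 to WT 4. All KO libraries except KO 3 lay below every WT library, and KO 3 lay among them. Its log2 fold change was -0.70 ± 0.25 (SE; adjusted p = 0.616 in edgeR; exact two-sided permutation p = 0.0317), -0.46 without WT 1 and -0.89 without KO 3. Ndufc1, a small accessory subunit of the membrane arm, was at 10.0, 10.8, 9.36, 11.9 and 12.3 CPM in KO libraries and 17.0, 13.4, 13.3 and 13.0 CPM in WT libraries, with no overlap. It differed by -0.38 ± 0.16 log2 units (SE; adjusted p = 0.616 in edgeR), and its exact permutation p of 0.00794 is the smallest that reassigning the 9 libraries between genotypes allows. Ndufc1 was named for its small p and lack of overlap, so this uncorrected permutation p adds no separate support.

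Other accessory subunits overlapped between genotypes. Ndufa7 averaged 29.4 ± 1.95 CPM in KO and 34.9 ± 4.69 CPM in WT libraries (SD, n = 5 and 4), with WT 4 at the KO level. Ndufb6 averaged 10.6 ± 1.67 CPM in KO and 14.0 ± 3.68 CPM in WT libraries, but 39.0% of its exon length overlaps another gene and 68.4% of its 50-base stretches are found in no other gene's transcripts. At the upper end of complex I, Ndufab1, the mitochondrial acyl carrier protein, had a log2 fold change of 0.26 ± 0.16 (SE; adjusted p = 0.693 in edgeR), at 36.2, 35.2, 42.7, 25.8 and 29.6 CPM in KO 1 to KO 5 and 31.2, 24.5, 30.4 and 27.5 CPM in WT 1 to WT 4. The 8 complex I assembly factors, which help build the complex and are not part of it, had a median of 0.07 with 3 below 0 and 0 at an unadjusted p under 0.05. Without WT 2 that median was -0.05. Their values were low and scattered: Ndufaf5, a methyltransferase-fold factor, was at 7.68, 8.96, 7.55, 5.60 and 8.38 CPM in KO libraries and 8.84, 3.97, 7.98 and 6.71 CPM in WT libraries. Ndufaf4 averaged 9.71 ± 2.49 CPM in KO and 10.7 ± 1.58 CPM in WT libraries, and Ndufaf7, an arginine methyltransferase of the complex I core, 13.7 ± 2.85 CPM in KO and 12.8 ± 3.79 CPM in WT libraries. The log2 fold change of Ndufaf2 was 0.27 ± 0.26 (SE); 65.6% of its exon length overlaps another gene.

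All 4 genes of complex II, the succinate dehydrogenase that also serves the tricarboxylic acid cycle, had a fold change below 0. The median was -0.26 and -0.19 without WT 1. At an unadjusted p under 0.05 in edgeR, 1 was lower, where 4.59% of all genes were. Sdhd, a membrane anchor subunit, was at 30.5, 26.7, 32.8, 26.5 and 34.9 CPM in KO 1 to KO 5 and 47.2, 41.6, 37.2 and 30.9 CPM in WT 1 to WT 4. Its genotypes overlapped through WT 4, and its log2 fold change was -0.37 ± 0.15 (SE; adjusted p = 0.616 in edgeR; exact permutation p = 0.0476). Sdhc, the other anchor, averaged 32.8 ± 7.19 CPM in KO and 40.9 ± 2.75 CPM in WT libraries. Sdha, the flavoprotein that oxidizes succinate, averaged 120 ± 8.14 CPM in KO and 139 ± 23.5 CPM in WT libraries, and Sdhb, the iron-sulfur subunit, 35.8 ± 3.85 CPM in KO and 36.7 ± 3.32 CPM in WT libraries. The fold change of Sdhb was -0.03 ± 0.12 (SE), and its sign changed with the setting.

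In complex III, which passes electrons from ubiquinol to cytochrome c, all 9 members had a fold change below 0. The median was -0.13 and -0.09 without WT 1. At an unadjusted p under 0.05 in edgeR, 1 was lower, where 4.59% of all genes were. Uqcrfs1, the Rieske iron-sulfur protein, was at 40.6, 27.4, 35.1, 29.1 and 42.6 CPM in KO 1 to KO 5 and 47.7, 45.1, 45.0 and 44.1 CPM in WT 1 to WT 4. KO values spread over a wide range and all lay under the narrow range of WT. Its log2 fold change was -0.38 ± 0.15 (SE; adjusted p = 0.616 in edgeR; exact permutation p = 0.0238). Uqcr11, a small supernumerary subunit, was at 29.2, 23.1, 26.8, 23.6 and 28.9 CPM in KO libraries and 35.8, 29.5, 30.4 and 30.2 CPM in WT libraries, again without overlap, with a log2 fold change of -0.26 ± 0.13 (SE; adjusted p = 0.642 in edgeR). Uqcrq, a ubiquinone-binding subunit, averaged 17.3 ± 3.57 CPM in KO and 20.9 ± 3.21 CPM in WT libraries, and Cyc1, the cytochrome c1 heme subunit, 43.0 ± 7.57 CPM in KO and 47.5 ± 4.21 CPM in WT libraries. The core proteins Uqcrc1 and Uqcrc2 were at log2 fold changes of -0.11 ± 0.13 and -0.02 ± 0.14 (SE).

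Complex IV, cytochrome c oxidase, reduces oxygen to water. Of its 12 tested members 11 had a fold change below 0. The median was -0.26 and -0.10 without WT 1. At an unadjusted p under 0.05 in edgeR, 2 were lower, where 4.59% of all genes were. Cox5a, a subunit facing the matrix, had the smallest p of all members. It was at 19.9, 19.7, 19.9, 16.6 and 20.5 CPM in KO 1 to KO 5 and 26.3, 27.8, 22.9 and 24.4 CPM in WT 1 to WT 4, and the groups were apart. Its log2 fold change was -0.39 ± 0.12 (SE; adjusted p = 0.613 in edgeR; exact permutation p = 0.00794), between -0.43 and -0.34 when any 1 library was left out. Of its exon length 12.8% overlaps another gene.

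WT 1 was the highest library for several other complex IV genes. Ndufa4, first named for complex I and now counted with complex IV, was at 49.6, 38.3, 54.3, 37.4 and 46.8 CPM in KO 1 to KO 5 and 94.2, 48.5, 60.2 and 53.0 CPM in WT 1 to WT 4. Its log2 fold change of -0.50 ± 0.20 (SE; adjusted p = 0.616 in edgeR) was -0.25 without WT 1. Cox6a1, the liver-type isoform of subunit 6a, was at 42.4, 44.8, 47.8, 42.6 and 53.9 CPM in KO libraries and 96.8, 50.6, 49.2 and 50.8 CPM in WT libraries, and its fold change of -0.41 ± 0.20 was -0.12 without WT 1. Cox8a, the widely expressed isoform of subunit 8, was at 38.8, 34.2, 39.7, 33.9 and 45.8 CPM in KO libraries and 62.6, 41.8, 45.2 and 43.0 CPM in WT libraries, with -0.32 ± 0.15, and -0.17 without WT 1. Cox4i1, which carries the nucleotide-binding regulatory subunit 4, averaged 101 ± 10.0 CPM in KO and 123 ± 34.5 CPM in WT libraries.

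The tissue-specific isoforms of complex IV were near 0. Muscle or lung isoforms had few counts in all libraries together: Cox4i2 had 2 in KO and 3 in WT, Cox6a2 3 in KO and 5 in WT, Cox8b 11 in KO and 8 in WT, and the testis isoform Cox6b2 19 in KO and 9 in WT. Cox7b2 had 0 counts, and Ndufa4l2, a hypoxia-induced paralog of Ndufa4, had 4 in KO and 4 in WT. Cox7a1, the heart and skeletal muscle isoform of subunit 7a, was at 1.58, 2.12, 1.64, 0.542 and 1.71 CPM in KO 1 to KO 5 and 0.698, 1.67, 0.831 and 0.895 CPM in WT 1 to WT 4 and was not tested because of its low counts. It stood beside the striated muscle list, in which 10 of 11 tested genes were above 0 with a median of 0.42 (0.27 without WT 4 and 0.63 without WT 2). Of these muscle genes 2 were higher at an unadjusted p under 0.05, where 3.36% of all genes were, and 0 were called. Whether traces of muscle set the level of Cox7a1 was not tested. Cox7a2l, which takes part in joining complexes III and IV into supercomplexes, took 52.6% to 58.2% of the counts of the 3 Cox7a genes in KO libraries and 47.4% to 58.2% in WT libraries.

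The ATP synthase couples a catalytic F1 head to a membrane ring of c subunits. Of its 17 members 15 had a fold change below 0, with a median of -0.23 (-0.16 without WT 1 and -0.15 without KO 2). At an unadjusted p under 0.05, 4 were lower, where 4.59% of all genes were, and 0 were called. Its parts had medians of -0.28 in the 5 F1 head genes, -0.30 in the 3 c ring genes, -0.14 in the 4 stalk genes and -0.11 in the 4 other membrane genes; the stalk median was -0.09 without KO 2 or without WT 1, and the membrane median -0.07 without KO 2. Atp5e, the epsilon subunit of the head, was at 19.1, 17.1, 14.0, 21.7 and 22.4 CPM in KO 1 to KO 5 and 24.7, 26.5, 24.4 and 24.6 CPM in WT 1 to WT 4. Every KO value lay under every WT value, and the log2 fold change was -0.41 ± 0.15 (SE; adjusted p = 0.616 in edgeR; exact permutation p = 0.0238). The catalytic beta subunit Atp5b was at 290, 258, 265, 286 and 361 CPM in KO libraries and 405, 380, 347 and 312 CPM in WT libraries, with -0.31 ± 0.14. The alpha subunit Atp5a1 averaged 271 ± 30.4 CPM in KO and 329 ± 31.8 CPM in WT libraries, with -0.28 ± 0.12. In both, KO 5 lay within the WT range.

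**Figure D3:**
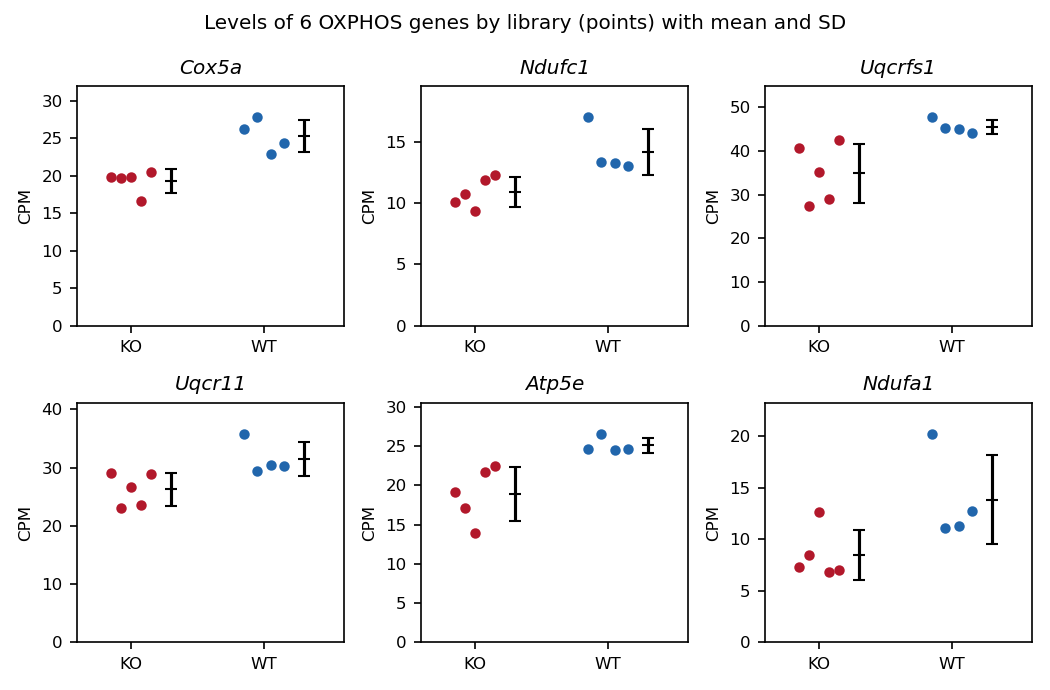
CPM of 6 members in each library (points, KO red and left, WT blue and right) with mean and SD beside them; axes start at 0. Cox5a, Ndufc1, Uqcrfs1, Uqcr11 and Atp5e show no overlap, and for Ndufa1 the KO 3 library, at 12.6 CPM, lies within the WT values.

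The 3 genes for subunit c gave unlike values. Atp5g3 was at 55.9, 47.1, 52.2, 52.9 and 62.9 CPM in KO 1 to KO 5 and 76.8, 62.9, 67.1 and 63.1 CPM in WT 1 to WT 4, with a log2 fold change of -0.32 ± 0.12 (SE; adjusted p = 0.616 in edgeR), and KO 5 reached the lowest WT library. Atp5g1 was at 15.4, 16.9, 19.9, 17.5 and 22.6 CPM in KO libraries and 25.4, 23.0, 19.1 and 23.5 CPM in WT libraries, with -0.30 ± 0.15. Atp5g2 had the highest fold change of all members, 0.32 ± 0.17 (adjusted p = 0.661 in edgeR; exact permutation p = 0.0397), at 8.86, 10.9, 12.2, 9.57 and 10.8 CPM in KO libraries and 6.98, 8.36, 9.64 and 8.51 CPM in WT libraries. As a share of the counts of the 3 genes it took 11.1%, 14.6%, 14.4%, 12.0% and 11.2% in KO 1 to KO 5 and 6.40%, 8.87%, 10.1% and 8.94% in WT 1 to WT 4, so the lowest KO share exceeded the highest WT share. That share was looked at after its values were seen and has no test. Only 61.7% of the 50-base stretches of Atp5g2 are found in no other gene's transcripts. The copies Gm10175 and Gm10231 that share some of the rest had 6 and 0 counts in KO and 7 and 0 in WT, against 302 and 166 for Atp5g2 in KO and WT. In the promoter windows printed above, Atp5g2 and Atp5g3 each hold an NRF1 match and Atp5g1 holds none.

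**Figure D4:**
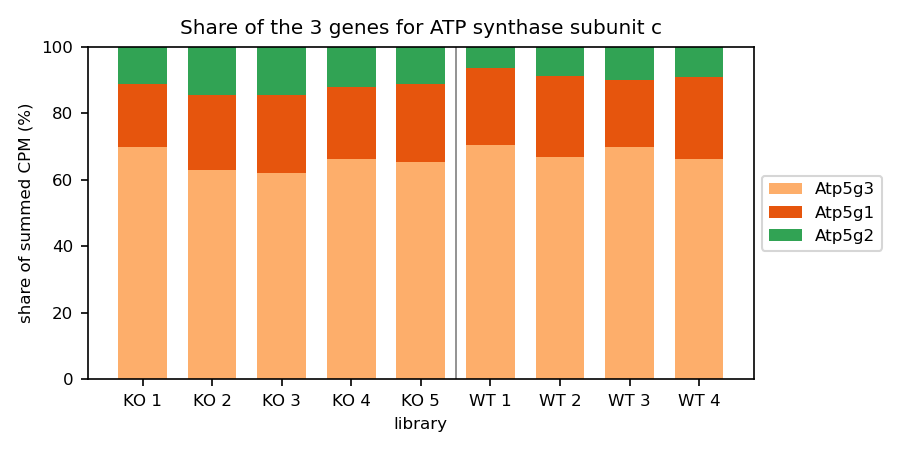
Share of summed CPM, in percent, taken by Atp5g3, Atp5g1 and Atp5g2 in each library, KO libraries left of the gray line. The green Atp5g2 block is 11.1% to 14.6% in KO libraries and 6.40% to 10.1% in WT libraries.

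Levels ranged widely from gene to gene. Per kilobase of merged exon length, the median level was 36.3 CPM for complex IV, 29.1 for complex III, 22.0 for complex II, 17.7 for the ATP synthase, 15.1 for complex I and 4.19 for the assembly factors. The highest gene of each group was Ndufc2 at 53.5 in complex I, Sdha at 31.2, Uqcr11 at 44.6, Cox6b1 at 91.2, Atp5a1 at 94.7 and, among assembly factors, Ndufaf1 at 8.92. The lowest were Ndufb2 at 3.18, Sdhc at 11.2, Uqcrq at 10.3, Cox7a1 at 2.43, Atp5l at 3.39 and Ndufaf2 at 2.09. This order depends on the length used, because merged exons include long transcripts that may be rare. Per kilobase of the principal transcript, known for 82 members, the medians were 56.0 for complex IV, 43.3 for the ATP synthase, 43.0 for complex III, 29.8 for complex II, 25.4 for complex I and 7.04 for the assembly factors. Complex IV came first and the assembly factors last on both scales. Over the 9 libraries the coefficient of variation of a member's CPM lay between 7.73% for Ndufv3, a flavoprotein-arm subunit of complex I, and 43.0% for Cox7a1.

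**Figure D5:**
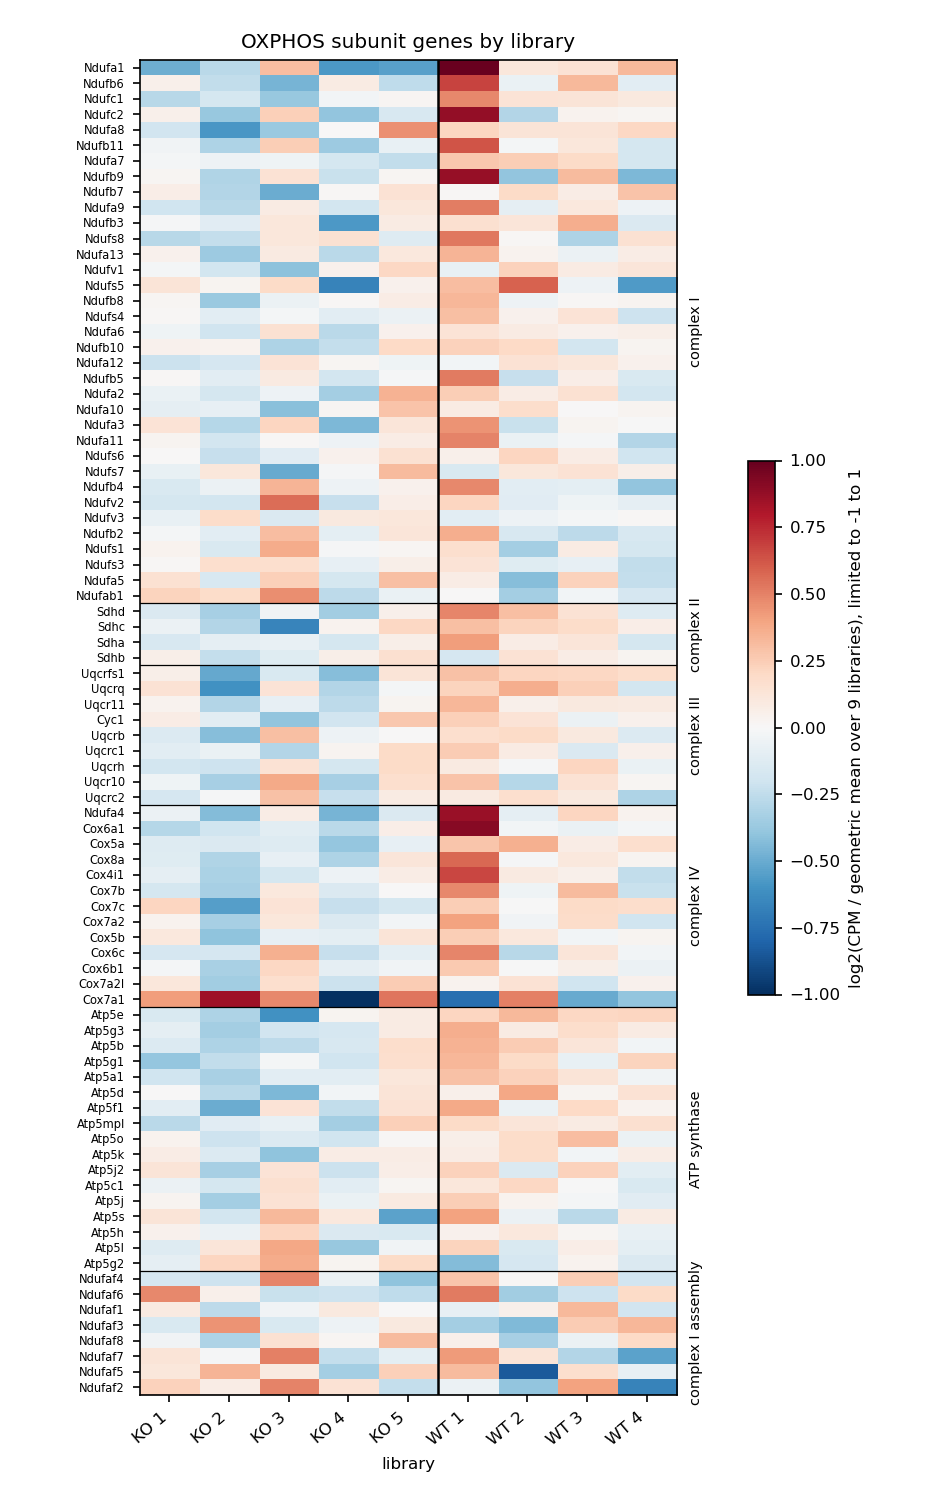
Log2 CPM of 86 of the 87 members relative to each gene's geometric mean over the 9 libraries, colored from blue (lower) to red (higher) and limited to 1 log2 unit, with KO libraries left of the thick line and members grouped by complex. WT 1 is the highest library for 43 members and KO 2 the lowest for 28.

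Lists of other mitochondrial genes, glycolysis genes and cytosolic ribosomal protein genes had mostly small negative fold changes too. Of all genes 50.0% were below 0. In these lists 0 genes were called, where 0.0886% of all genes were. Of 18 tricarboxylic acid cycle and pyruvate dehydrogenase genes, 13 were below 0 with a median of -0.10. At an unadjusted p under 0.05, 2 were lower, where 4.59% of all genes were. Pdha1, the E1 alpha subunit of pyruvate dehydrogenase, was at 108, 86.4, 106, 98.7 and 114 CPM in KO 1 to KO 5 and 138, 134, 136 and 114 CPM in WT 1 to WT 4, with a log2 fold change of -0.35 ± 0.12 (SE; adjusted p = 0.616 in edgeR) and no overlap between genotypes. Cs, citrate synthase, had -0.35 ± 0.13. Glycolysis genes had 13 of 15 below 0 with a median of -0.12 and 0 at an unadjusted p under 0.05, and import and chaperone genes 17 of 22 with -0.10. Other assembly factors had 27 of 44 below 0 with -0.04, mitochondrial ribosomal protein genes 50 of 77 with -0.06 and cytosolic ribosomal protein genes 64 of 76 with -0.10. Several of these medians moved with single libraries. With 1 left out, that of the glycolysis genes lay between -0.19 (without KO 5) and -0.10 (without KO 1), and that of the import and chaperone genes between -0.16 (without WT 4) and -0.06 (without KO 4). The median of the other assembly factors lay between -0.10 (without WT 4) and -0.02 (without KO 2), that of the mitochondrial ribosomal genes between -0.10 (without WT 4) and -0.02 (without WT 1), and that of the cytosolic ribosomal genes between -0.13 (without KO 5) and -0.06 (without KO 2). Among 12 carriers and electron transfer genes 10 were below 0 with a median of -0.13 (-0.05 without WT 3 and -0.08 without WT 1). At an unadjusted p under 0.05, 2 were lower and 1 higher, where 4.59% and 3.36% of all genes were. The ADP/ATP carrier gene Slc25a5 had -0.42 ± 0.17 and the electron transfer flavoprotein gene Etfb 0.69 ± 0.30. The smallest p of the other lists belonged to Ldha (lactate dehydrogenase, -0.34 ± 0.15) and Slc2a1 (a glucose transporter, -0.37 ± 0.20) in glycolysis, Tomm5 (-0.38 ± 0.20) and Tomm7 (-0.21 ± 0.16) of the outer membrane import complex, and the complex IV assembly genes Coa5 (-0.29 ± 0.14) and Cox14 (-0.28 ± 0.14).

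Of 16 regulators of mitochondrial biogenesis, 10 were above 0, where 50.0% of all genes were below 0. Their median was 0.07, but 0.0052 without KO 5 and 0.03 without WT 1. Ppargc1a, which encodes PGC-1alpha, was at 6.30, 12.5, 5.58, 11.7 and 10.9 CPM in KO 1 to KO 5 and 4.65, 3.34, 5.98 and 6.71 CPM in WT 1 to WT 4. KO 1 and KO 3 lay within the WT range, and the log2 fold change was 0.86 ± 0.31 (SE; adjusted p = 0.616 in edgeR; exact permutation p = 0.0794). Nrip1, a nuclear corepressor, had -0.20 ± 0.13. Member windows with the NRF1 motif had a median log2 fold change of -0.13 in 18 genes and those without it -0.14 in 52.

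The subunits encoded in mitochondrial DNA varied widely between libraries of the same genotype. Only 7 of the 13 could be tested, since mt-Co2, mt-Co3, mt-Atp6, mt-Atp8, mt-Nd3 and mt-Nd4l had 0 to 5 counts per genotype. The 13 genes together summed to 64952, 65669, 39361, 86197 and 96941 CPM in KO 1 to KO 5 and 37258, 64343, 47578 and 151551 CPM in WT 1 to WT 4. WT 4 was above every other library and WT 1 below every other. For mt-Nd6 and mt-Cytb, subunits of complexes I and III, the log2 fold changes were -0.28 ± 0.43 and -0.11 ± 0.40 (SE). The median fold change was -0.08 with all 7 below 0, and it lay between -0.31 without WT 1 and 0.50 without WT 4, so the data give no direction for these genes.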

How the data were processed

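RNA-seq counts per gene were deposited by the authors, per the file headers as whole numbers with no normalization. Per the submitters' processing notes the reads were handled with Trimmomatic 0.36, FastQC 0.11.5 and STAR 2.5.4a on GRCm38; the sources used here do not name the annotation release or the strand counted, so reads of overlapping genes may be shared. Gene identifiers were matched to GENCODE for names and exon length, for 55141 of 55401 mouse identifiers. KO was compared with WT in edgeR 4.0.16 (R 4.3.3; filterByExpr, TMM, quasi-likelihood test, Benjamini-Hochberg adjustment over 14665 genes, threshold 0.05), with DESeq2 1.42.0 and limma-voom 3.58.1 as alternatives. Single values used exact two-sided permutation tests over all assignments, whose smallest p is 0.00794. These permutation p-values were not corrected for the number of genes examined. Most stand beside genes named for a small p or for lack of overlap, so they add no separate support. The counts carry no molecular identifiers. The standard errors and p-values of edgeR take in variation between libraries as well as counting error. On simulated data with 200 changed genes among 14665, edgeR called 85 of the 200 genes changed 2-fold and 188 of 200 changed 4-fold. The changed genes were drawn from all genes tested, whose median standard error was 0.21, against 0.15 for members. Changes as small as the members' median log2 fold change of -0.14 were not simulated, so their recovery is not known. Named genes were the 4 smallest p in each complex, its highest and lowest level per kilobase, members without overlap, isoform families and the 2 smallest p of each pathway list. Members and lists were chosen with earlier results of these data known. Ndufab1, Ndufv3, Uqcrc1 and Uqcrc2 were named after their values were seen. The values of 1 member are not reported here singly; it stays in the counts and medians.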

Additional observations from a re-analysis of the deposited data

Results flagged for a closer look

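Among 174 genotype groups of 4 or 5 libraries examined for the members, a test for a library standing apart from its group marked 10, where chance marks about 1 in 20. WT 1 was the highest of the WT libraries in 5 of them and stood apart in Ndufc1 at 17.0 CPM, Ndufb2 (a small complex I accessory subunit) at 22.8 CPM, Uqcr11 at 35.8 CPM, Cox8a at 62.6 CPM and Cox6a1 at 96.8 CPM. KO 3 was the highest KO library for Ndufa1 at 12.6 CPM, and KO 4 the lowest KO library for Cox5a at 16.6 CPM. WT 2 was the highest WT library for Atp5e at 26.5 CPM.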

How the results depend on the processing

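No member was called in any setting, and the median over all members stayed below 0; that of the assembly factors was -0.05 without WT 2. The number of members lower at an unadjusted p under 0.05 was 10 and moved most with the setting: it was 3 on library totals without scaling, 16 with age as a covariate, 3 without WT 1 and WT 4, and 4 without WT 1 and KO 3 (an alternative chosen after seeing the data). The share of all genes lower at such a p moved too. In the same order it was 2.62%, 7.92%, 3.32% and 3.37%, against 4.59% in the main fit. Leaving out 1 library at a time gave 3 to 17 members, with 3 without KO 2 or WT 1, 5 without KO 4, 16 without KO 5 and 17 without WT 4. The share of all genes ran from 3.11% without KO 2 to 5.73% without WT 4. The members' median lay between -0.21 with age as a covariate and -0.08 on library totals, a scaling that moved the median of all genes to 0.06. Fitting the replicate number as a block gave 13 members lower at such a p, where 5.72% of all genes were, and a median of -0.17. Same-numbered samples correlated at -0.02, 0.38, 0.11 and 0.38 and other pairs at -0.38 to 0.57. Not every sample correlated best with its own number, and the labels name no shared origin, so the numbers were not taken as pairs.

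Single genes changed sign in 15 checks. Sdhb was 0.024 on library totals, 0.023 with age and 0.0065 with a correction for exon length and GC content, and -0.092 to 0.019 when 1 library was left out. Ndufaf5 was -0.16 with age and -0.038 to 0.29 with 1 library left out, and Ndufaf7 was -0.040 to 0.28. Without WT 1 and WT 4, mt-Nd6 was 0.15 and mt-Cytb 0.31; with 1 library left out, mt-Nd6 was -0.50 to 0.32 and mt-Cytb -0.33 to 0.48. In limma-voom mt-Cytb was 0.079. The cause was not tested. Uniqueness in the genome and genome GC content were not run, and transcript sequences were used in their place. Cox7a1 had too few counts to be tested at this depth.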
